A study of Homo sapiens with 12 samples.

Results

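The proteasome genes were taken from the RNA-sequencing counts of WA26 human embryonic stem cells (hESCs) as all genes whose symbol begins with PSMA to PSMG and a number. Of 54 matching symbols, 4 antisense genes were left out, so that 50 of the 28278 genes in the table were members. They comprised 48 genes of the proteasome, its activators, its inhibitor and its assembly chaperones, and 2 genes that only share the letters. Those 2 were PSMC3IP, which encodes a recombination factor of meiosis, and PSME3IP1, which encodes a nuclear protein that binds the activator PSME3.

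WA26 is a human embryonic stem cell line, and UBQLN1 knockout (KO) cells were made from it with CRISPR/Cas9 and grown from picked clones. UBQLN1 encodes a ubiquilin, a shuttle protein that carries ubiquitinated substrates to the proteasome. The 4 groups of 2 libraries each were untreated wild-type (WT) cells, untreated KO cells, KO cells cultured at 5% O2 instead of normal O2, and KO cells given N-acetyl-L-cysteine (NAC), a thiol antioxidant. The study asked whether less oxidative stress relieves what the loss of UBQLN1 does to mitochondria and telomeres. The labels name neither the clone behind a library nor a vehicle, and DMSO was the vehicle in the NAC experiments of the study. No label gives a treatment time, the study describes more than a single length of treatment, and the times of NAC and of 5% O2 may therefore differ. The study calls the libraries of a group biological replicates, but no label says that they were separate cultures, so p-values measure the spread between these libraries. The same pair of untreated KO libraries served as control for KO against WT, for NAC and for 5% O2, and their values are given side by side.

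The 26S proteasome degrades proteins that carry ubiquitin chains. Its barrel, the 20S core, has outer rings of alpha subunits, which form the gate, and inner rings of beta subunits, which cut peptide bonds. The 19S regulator caps the barrel, with a base of ATPases that unfold the substrate and a lid that removes ubiquitin. Pluripotent stem cells are known for high proteasome activity.

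The libraries held between 31236968 and 41639350 counts, and the replicates of every group differed by more than counting noise (chi-square per degree of freedom 9.53 to 30.7). UBQLN1 was at 221 and 197 CPM (counts scaled to the size of the library) in WT and at 42.3 and 43.5 CPM in untreated KO libraries, and at 47.7 to 62.4 CPM in the treated KO libraries. All 7 pluripotency markers were present in every library, with POU5F1 between 110 and 195 CPM and a summed level between 4189 and 5534 CPM. The first NAC library stood apart by mesenchymal markers. Its 10 mesenchymal markers summed to 1054 CPM, against 527 to 641 CPM in the other 7 libraries. DCN and LUM were at 47.2 and 3.86 CPM there and at 0 counts in the other 7, so the counts of calls by role are also given without that library. In bulk RNA, fewer cells of a type and less RNA per cell cannot be told apart.

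Sequence before the start sites is shown for members on which the results below turn: PSMD10, the only member called lower in KO cells in the model of all 8 libraries, PSMA3 and PSMA5, which rose with NAC, and PSME1 and PSME4, activators that rose and fell with NAC. The bases are from RefSeq (GRCh38.p14), 5′ to 3′ on the strand of the gene, and without bases in annotated exons, except that PSME4 is shown only by its motif with 10 bases on each side, which lie in an exon of the opposite gene ACYP2. Capitals mark CCAAT boxes (CCAAT, or ATTGG on the other strand) and antioxidant response element cores (TGACNNNGC, or GCNNNGTCA).
PSMD10 (chrX:108091550-108091667, minus strand): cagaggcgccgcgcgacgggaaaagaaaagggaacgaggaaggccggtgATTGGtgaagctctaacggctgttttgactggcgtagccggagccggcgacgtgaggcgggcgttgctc
PSMA3 (chr14:58244593-58244842, plus strand): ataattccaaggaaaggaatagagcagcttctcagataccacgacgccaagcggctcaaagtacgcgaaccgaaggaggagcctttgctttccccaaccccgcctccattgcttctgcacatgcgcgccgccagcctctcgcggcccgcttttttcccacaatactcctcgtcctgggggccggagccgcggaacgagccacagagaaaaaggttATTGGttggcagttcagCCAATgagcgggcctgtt
PSMA5 (chr1:109426449-109426698, minus strand): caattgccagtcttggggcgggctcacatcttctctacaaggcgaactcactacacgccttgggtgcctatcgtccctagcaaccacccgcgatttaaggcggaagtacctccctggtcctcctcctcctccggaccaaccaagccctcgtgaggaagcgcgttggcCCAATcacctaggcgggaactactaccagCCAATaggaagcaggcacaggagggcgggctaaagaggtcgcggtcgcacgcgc
PSME1 (chr14:24135944-24136162, plus strand): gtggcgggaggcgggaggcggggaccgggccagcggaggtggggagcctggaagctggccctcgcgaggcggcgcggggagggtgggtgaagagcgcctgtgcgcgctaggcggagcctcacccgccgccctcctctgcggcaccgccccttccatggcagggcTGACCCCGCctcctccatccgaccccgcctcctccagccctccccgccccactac
PSME4 (chr2:53971009-53971037, minus strand): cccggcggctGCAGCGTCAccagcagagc

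Of the 50 members, 44 had an entry, namely all but PSMA7, PSMB1, PSMB6, PSMB7, PSMD4 and PSMG3. Any start listed for a gene was counted, also one that is not the canonical start. In the 250 bases before a start, 13 of the 44 (29.5%) held an antioxidant response element core, against 13.2% of all 27305 genes with an entry. Before the canonical start it was 10 of the 44, since PSMA4, PSMC5 and PSMG2 held it only before another start. The same count was not made over all genes, and a gene with more listed starts has more places for a match. A CCAAT box was found in 21 of the 44 (47.7%), against 37.0% of all genes. The hypoxia response element core (ACGTG, or CACGT) was found in 9 (20.5%), against 21.7% of all genes. No match of 1 motif overlapped a match of another in the members, and a match is a run of letters and not a shown binding site. Among members tested, 8 of 12 with and 19 of 28 without the antioxidant core were called higher with NAC, against 23.8% of all tested genes. The median log2 fold changes were 0.50 and 0.53. For the CCAAT box it was 14 of 19 with and 13 of 21 without, with medians of 0.66 and 0.41. For the hypoxia core it was 7 of 8 with and 20 of 32 without, with medians of 0.71 and 0.48. The differences between members with and without a motif were not tested.

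Per kilobase of transcript, the highest members were genes of the 20S core. Levels between genes are compared here as CPM per kilobase of the canonical GENCODE transcript, averaged over the 8 libraries. PSMA7, an alpha subunit, was highest at 461 CPM per kb, followed by the beta subunits PSMB4 at 406, PSMB1 at 332 and PSMB5 at 280 CPM per kb. Near the bottom of the tested members were PSMC1, a base ATPase, at 13.6, PSMF1, the inhibitor PI31, at 10.4, PSMG3 at 9.88 and PSMC3IP at 3.57 CPM per kb. Subunits of the same ring thus stood far apart in transcript level per kilobase, PSMA5 being at 43.4 and PSMA7 at 461 CPM per kb in the alpha ring.

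Of the 50 members, 46 passed the filter on low counts and 4 did not. The catalytic subunits PSMB8 and PSMB9 of the immunoproteasome, the form that interferon induces, were nearly absent. PSMB8 had 2 and 2 counts in WT, 6 and 10 in KO, 9 and 4 at 5% O2, and 3 and 5 with NAC. PSMB9 had 0 to 2 counts per library. For both genes most of the transcript lay also on alternate-locus scaffolds of the genome (87.5% and 85.8% of its 31-base words), and reads of such genes can be lost where a count needs a single place. The third such subunit, PSMB10, was present with 759 to 1163 counts per library. It had 928 and 1163 counts in WT, 870 and 1119 in KO, 999 and 759 at 5% O2, and 1111 and 880 with NAC. PSMB10 was not called in any comparison, with a log2 fold change of 0.20 ± 0.11 (standard error) with NAC (adjusted p = 0.178). With the trend on transcript length and GC content removed, as described below, it was called higher with NAC than in untreated KO (0.30, adjusted p = 0.0433) and than at 5% O2 (0.33, adjusted p = 0.0444). PSMB11, the thymus form, had 0 counts in all 8 libraries, and PSMA8, the testis form, had 0 to 5 counts.

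PSMB3 was the least certain of the tested members. This non-catalytic beta subunit had 2278 and 219 counts in WT, 1089 and 2154 in KO, 3664 and 2762 at 5% O2, and 8669 and 3583 with NAC. Its WT replicates differed 12.0-fold in CPM, whereas the other tested members differed at most 1.4-fold between replicates of a group. Of its transcript words, 80.3% lay also on scaffolds. In all, 14 of the 50 members had at least 10% of their words elsewhere in the genome, and PSMA6, PSMC1, PSMC6, PSMD4 and PSME2 were among them with 33.5% to 41.2%.

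In KO against WT cells, transcripts of the proteasome were at slightly lower levels, and PSMD10 alone passed edgeR's test in the model of all 8 libraries. The members together made up 0.742% and 0.733% of all counts in WT and 0.700% and 0.691% in KO libraries. Of the 46 tested members, 0 were called higher and 1 was called lower at an adjusted p under 0.05, against 1.34% and 0.622% of all tested genes. At an unadjusted p under 0.05 the counts were 0 higher and 7 lower, against 9.5% and 8.12% of all genes. DESeq2 called 0 higher and 2 lower, PSMD10 and the alpha subunit PSMA2, against 3.42% and 1.98%. The median log2 fold change was -0.10, against 0.00 over all genes, and 37 of the 46 lay below 0. Both KO libraries lay below both WT libraries for 25 members, against 27% of all genes, and above them for 2 members, against 27.7%. When each library was corrected for a smooth dependence on transcript length and GC content (the trend), the median was -0.02 and PSMD10 was still the only call, against 0.591% of all genes higher and 0.603% lower. The criteria of the study, an absolute log2 fold change above 1 with an unadjusted p below 0.05, gave 0 higher and 1 lower member, against 1.11% and 1.46% of all genes. By role, the median was -0.14 for the alpha ring, -0.13 for the beta ring, -0.12 for the lid and -0.07 for the base ATPases.

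PSMD10 encodes gankyrin, a chaperone that helps to assemble the 19S base and is also known as an oncoprotein. It had 3932 and 5015 counts in WT, 1597 and 1867 in KO, 2927 and 1904 at 5% O2, and 3817 and 2613 with NAC. In CPM it was at 118 and 130 in WT, 43.3 and 45.3 in KO, 71.8 and 59.3 at 5% O2, and 99.6 and 87.3 with NAC. The 4 groups did not overlap, WT being highest and untreated KO lowest. KO cells differed from WT by -1.48 ± 0.12 on the log2 scale (adjusted p = 4.26e-05), which is a level of 0.358 times that in WT, and it was called in every alternative that kept the gene in. PSMD10 was higher with NAC than in untreated KO (log2 fold change 1.08 ± 0.11, adjusted p = 3.2e-05) and higher at 5% O2 (0.57 ± 0.11, adjusted p = 0.0178). With the length and GC trend removed the value was 0.31 with NAC, still called, and 0.27 at 5% O2, not called. Of its transcript words, 13.8% lay elsewhere in the genome.

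PSMD10 is the only member on the X chromosome (108084207 to 108091542, minus strand, GENCODE 44 on hg38), head to head with ATG4A, which encodes a protease of autophagy. Its neighbours moved with it in KO against WT. Of the 9 genes of the table found within 400 kb, PSMD10 included, 8 had enough counts to be tested, and 7 of them were called lower in KO. ATG4A had 336 and 282 counts in WT and 132 and 158 in KO (log2 fold change -1.23, adjusted p = 0.0144). TSC22D3, a glucocorticoid-induced leucine zipper gene, had 1310 and 1464 counts in WT and 441 and 572 in KO (-1.58, adjusted p = 0.000424). MID2 (-1.87), TEX13B (-2.78), COL4A6 (-0.69) and COL4A5 (-0.79) were lower as well, whereas VSIG1 had 0 and 0 counts in WT and 30 and 26 in KO and was called higher. Over the whole X chromosome, 5 of 556 tested genes were higher and 23 lower in KO, with a median of -0.06. These are 0.899% and 4.14%, against 1.34% and 0.622% of all tested genes, and the 8 tested genes of the window are among the 556. With NAC, where PSMD10 was at 1.08 (0.31 with the trend removed), COL4A5 was at 0.47 and was called (adjusted p = 0.0348). The other 6 were not called, with ATG4A at 0.27, TSC22D3 at 0.30, VSIG1 at 0.27, COL4A6 at -0.15, MID2 at -0.31 and TEX13B at -0.75. The values of the neighbours with the trend removed are not given. The part of the neighbourhood, of the picked clone and of the loss of UBQLN1 in the level of PSMD10 was not tested.

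**Figure D1:**
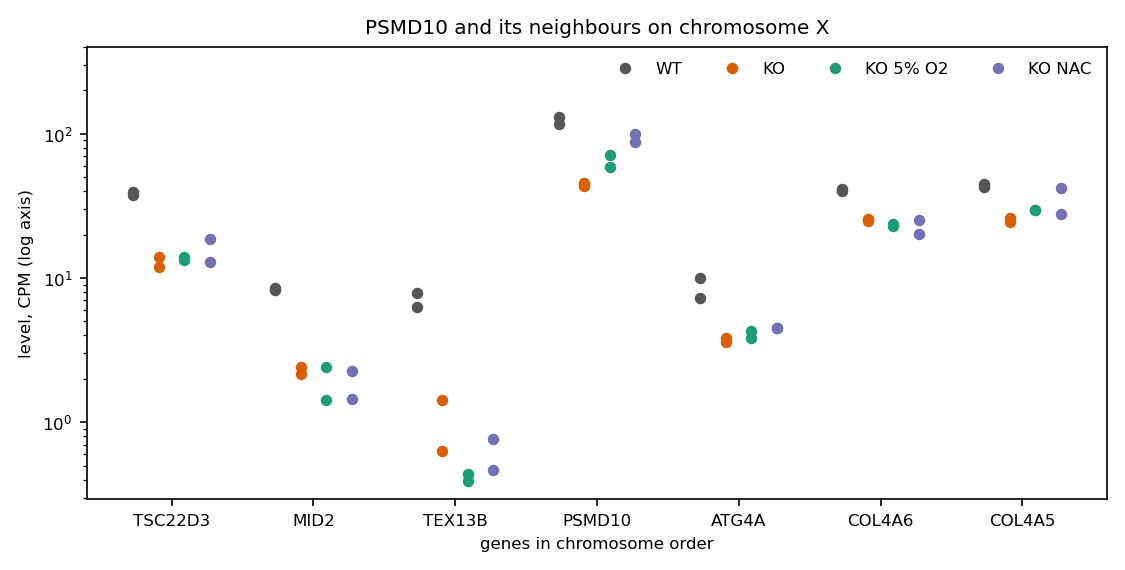
Level of PSMD10 and 6 tested neighbours on the X chromosome in each library, in CPM on a log axis, each point being 1 library and VSIG1 left out for its 0 counts in WT. All 7 genes lie lower in untreated KO (43.3 and 45.3 CPM for PSMD10) than in WT (118 and 130 CPM), and PSMD10 lies higher again at 5% O2 and with NAC.

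With NAC, KO cells held more transcripts of the proteasome, with all of the alpha ring and most of the beta ring, base ATPases, lid and assembly chaperones higher, while the PA200 activator PSME4 and the inhibitor PSMF1 were lower. The members took up 0.900% and 0.879% of all counts with NAC, against 0.700% and 0.691% in untreated KO. Of the 46 tested, 31 were called higher and 2 lower, against 23.8% and 20.8% of all tested genes. The median log2 fold change was 0.55, against 0.02 over all genes. Both NAC libraries lay above both KO libraries for 38 members, against 36.2% of all genes. Below both stood 3 members, against 34% of all genes. By the criteria of the study 3 were higher (PSMB3, PSMB1 and PSMD10) and 0 lower, against 3.63% and 5.39% of all genes.

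These counts moved with transcript length and GC content. Over all genes the log2 fold change with NAC went down with GC content (Spearman's rho -0.49 over 15191 genes, which share the same 4 libraries) and with length (-0.25). The tested members are short, with a median transcript of 1529 bases, against 3251 over all tested genes, and a GC content of 48.1% against 49.0%. With each library's smooth trend on both removed, 19 members were higher and 2 lower, against 15.3% and 10.2% of all genes, and the median was 0.19. Of the 31 members, 17 were still called. The trend's own part in the change was not tested. Without the first NAC library, which held the mesenchymal markers, 30 were higher and 2 lower, against 21.2% and 19.7% of all genes. PSMB3 was the call that was lost. By role the calls without it were 7 of 7 in the alpha ring, 5 of 7 in the beta ring, 4 of 6 base ATPases, 5 of 8 in the lid and 6 of 7 assembly chaperones, and the medians of the alpha and beta rings were 0.89 and 0.51.

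Other markers were compared as well. Of the 7 pluripotency markers 2 were called higher with NAC and 2 lower (28.6% each), near the 23.8% and 20.8% of all tested genes. Among those lower was DNMT3B, a DNA methyltransferase, at 2553 and 2455 CPM in KO and 1136 and 1418 CPM with NAC. In the other direction, ZFP42 was at 285 and 285 CPM in KO and 427 and 445 CPM with NAC. The 5 neural markers summed to 418 and 387 CPM in WT, 628 and 614 in KO, 361 and 444 at 5% O2, and 227 and 240 CPM with NAC, of which NES, an intermediate filament gene, made up most, and PAX6 was at most 0.10 CPM in any library. The 5 endoderm markers summed to 1.08 to 3.93 CPM, with SOX17 at 0 in all 8 libraries. CXCR4, which made up most of that sum, was at 0.813 and 0.656 CPM in KO and was called higher with NAC (1.20, adjusted p = 0.0157) and at 5% O2 (1.59, adjusted p = 0.0237). Of the 2 endoderm markers tested, the other lay below 0 with NAC (-3.20) and was not called. GATA4 was at 0.163 and 0.437 CPM in KO and 0 and 0.0668 CPM with NAC. The 4 markers of blood and endothelium summed to 49.0 to 121 CPM, nearly all of it KDR, a receptor of vascular endothelial growth factor, while PTPRC, PECAM1 and CDH5 were at 0.267 CPM or less. KDR was called lower in KO against WT (-0.80, adjusted p = 0.00118) and at 5% O2 against untreated KO (-0.40, adjusted p = 0.0327). The 5 mesoderm markers summed to 2.64 to 8.41 CPM. The part of these markers in the members' change was not tested, and their values with the trend removed are not given.

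**Figure D2:**
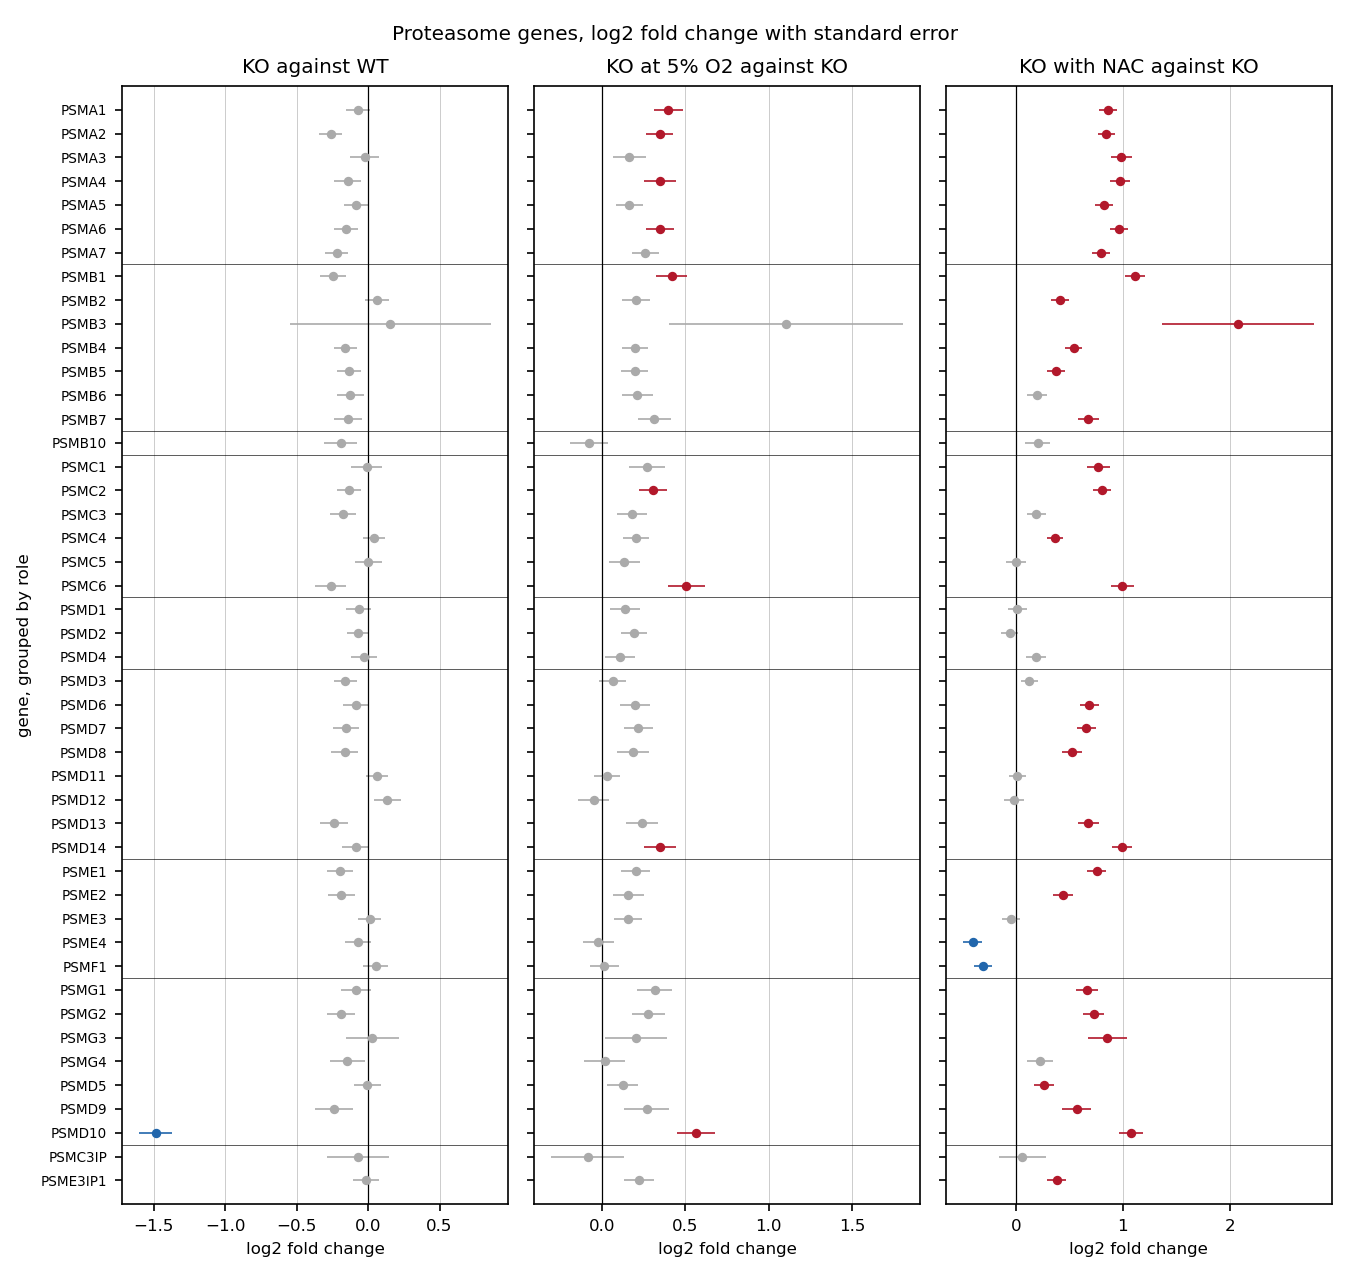
Log2 fold change (x axis, bars are standard errors) of the 46 tested members by role (y axis, lines divide the roles) in 3 comparisons that share the untreated KO libraries, red for called higher, blue for called lower and grey for not called. KO against WT has 1 blue point, PSMD10, 5% O2 has 9 red points and NAC has 31 red and 2 blue.

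The alpha ring rose as a whole with NAC. All 7 of its genes were called higher, against 23.8% of all tested genes, with a median log2 fold change of 0.86. Their summed level was 1324 and 1305 CPM in KO and 2414 and 2417 CPM with NAC. PSMA3 was at 141 and 117 CPM in WT, 129 and 125 in KO, 138 and 147 at 5% O2, and 248 and 255 CPM with NAC. It was the most raised of the ring (0.99 ± 0.10, adjusted p = 2.54e-05), and the NAC libraries stood above the other 6, but with the trend removed the value was 0.14 and was not called. PSMA4 was at 169 and 157 CPM in KO and 333 and 307 with NAC (0.97 ± 0.10, adjusted p = 2.41e-05). Its value with the trend removed was 0.77, the highest of the ring. PSMA4, PSMA5, PSMA6 and PSMA7 were called under every alternative that kept them in, other than the criteria of the study, and PSMA1, PSMA2 and PSMA3 lost the call with the trend removed.

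In the beta ring 6 of 7 genes were called higher, against 23.8% of all tested genes, with a median of 0.54. PSMB1, a non-catalytic subunit, was at 242 and 252 CPM in WT, 203 and 214 in KO, 301 and 255.9 at 5% O2, and 466 and 434 CPM with NAC. Both NAC libraries lay above all others, and the log2 fold change was 1.11 ± 0.09 (adjusted p = 1.59e-05, a level 2.16 times that in KO), or 0.69 with the trend removed, still called. The 3 catalytic subunits of the constitutive core moved by less than PSMB1. Of them PSMB7 lay above the median of the ring, and PSMB5 and PSMB6 lay below it. PSMB7, the trypsin-like subunit, was at 85.6 and 82.7 CPM in KO and 144 and 125 with NAC (0.68 ± 0.10, adjusted p = 0.000186). With the trend removed it was at 0.35 and still called. PSMB5, the chymotrypsin-like subunit and the target of bortezomib, was at 251 and 264 CPM in KO and 340 and 326 with NAC (0.37 ± 0.08, adjusted p = 0.00326), and with the trend removed it was at 0.18 and not called. PSMB6, the caspase-like subunit, was at 170 and 169 CPM in KO and 209 and 180 with NAC, and was not called (0.20 ± 0.09, adjusted p = 0.109). PSMB3 had the largest value (2.08 ± 0.71, adjusted p = 0.0325), which rests on the replicates described above, and it was called in 7 of 14 alternatives.

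The 19S regulator was more divided. Of the 6 base ATPases 4 were called higher, against 23.8% of all tested genes. These were PSMC1 (0.77), PSMC2 (0.80), PSMC4 (0.36) and PSMC6 (1.00). With the trend removed only PSMC1 and PSMC4 were still called, against 15.3% of all genes called higher. PSMC3 at 0.19 (adjusted p = 0.112) and PSMC5 at 0.00 (adjusted p = 0.983) were not. PSMC6 was at 115 and 116 CPM in WT, 101 and 91.9 in KO, 147 and 127 at 5% O2, and 209 and 175 CPM with NAC, but with the trend removed its value was 0.12 and that of PSMC2 0.18 (adjusted p = 0.353 and 0.0764), while PSMC1 was at 0.94.

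None of the 3 other base subunits was called with NAC (0 also at an unadjusted p under 0.05, against 27.2% and 24.1% of all genes higher and lower, and by DESeq2, against 22.4% and 22.1%). These are the scaffolds PSMD1 at 0.01 and PSMD2 at -0.06 and the ubiquitin receptor PSMD4 at 0.19. PSMD4 was at 190 and 182 CPM in WT, 184 and 179 in KO, 194 and 198 at 5% O2, and 224 and 191 CPM with NAC. Their summed level was 907 and 869 CPM in KO and 923 and 870 CPM with NAC, so that the replicates overlapped. In the lid 5 of 8 were called higher, against 23.8% of all tested genes. PSMD14, the metalloprotease that cuts ubiquitin chains off the substrate, was at 122 and 111 CPM in WT, 115 and 105 in KO, 145 and 134 at 5% O2, and 229 and 209 CPM with NAC. Its log2 fold change was 0.99 ± 0.10 (adjusted p = 2.11e-05), or 0.37 with the trend removed, still called. PSMD6, PSMD7, PSMD8 and PSMD13 were between 0.52 and 0.69, and PSMD3 (0.13), PSMD11 (0.01) and PSMD12 (-0.02) were not called. With the trend removed PSMD3 was called higher (0.35) and PSMD12 lower (-0.50), and PSMD6 (0.18, adjusted p = 0.162) and PSMD7 (0.22, adjusted p = 0.0676) were no longer called.

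**Figure D3:**
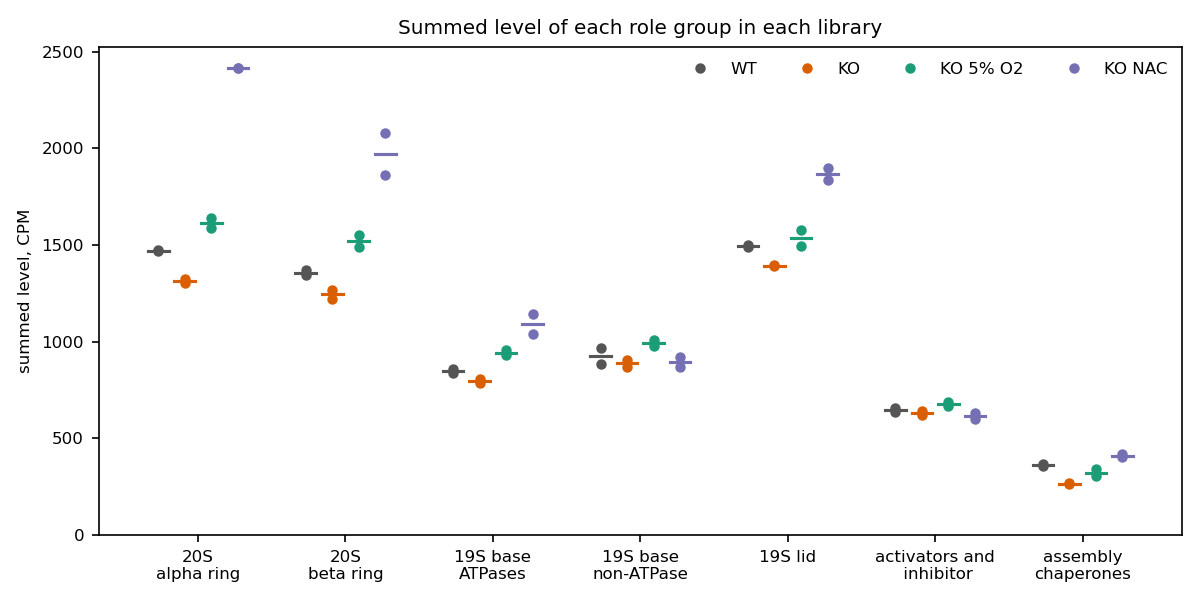
Summed level of each role group in CPM (y axis, from 0) in each of the 8 libraries, with points for libraries and a line at the mean of the 2 libraries of a group. The alpha ring stands at 2414 and 2417 CPM with NAC and at 1305 to 1642 CPM in the other libraries, while the 3 non-ATPase base genes overlap between KO and NAC.

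The activators went in both directions. PSME1 and PSME2, the subunits of the interferon-inducible cap PA28, were called higher with NAC. PSME1 was at 55.6 and 53.7 CPM in WT, 46.6 and 48.8 in KO, 56.1 and 53.6 at 5% O2, and 80.4 and 80.6 CPM with NAC (0.75 ± 0.09, adjusted p = 5.3e-05, and 0.50 with the trend removed, still called). PSME2 was at 40.5 and 37.5 CPM in KO and 53.7 and 52.1 with NAC (0.44 ± 0.09, adjusted p = 0.00238, and 0.13 with the trend removed, not called). PSME3, the nuclear PA28 gamma subunit, was at 311 and 302 CPM in KO and 281 and 313 with NAC and was not called (-0.05, adjusted p = 0.696).

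PSME4, which encodes the large activator PA200, fell with NAC. It was at 168 and 147 CPM in WT, 155 and 145 in KO, 148 and 148 at 5% O2, and 113 and 114 CPM with NAC, the NAC libraries being the lowest. The log2 fold change was -0.40 ± 0.09 (adjusted p = 0.00335), and it stayed called at -0.34 with the trend removed and under every other alternative but the criteria of the study. PSMF1, the inhibitor PI31, was at 90.9 and 88.3 CPM in KO and 72.6 and 72.2 with NAC (-0.31 ± 0.09, adjusted p = 0.0127), and with the trend removed its sign turned (0.15, not called). PSMF1 and PSME4 have the longest transcripts of the members, at 8154 and 7250 bases.

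Of the 7 assembly chaperones 6 were called higher with NAC, PSMD10 among them, against 23.8% of all tested genes. With the trend removed it was 3 of the 7, against 15.3%, with a median of 0.07. PSMG1 and PSMG2, which pair to assemble the alpha ring, were at 56.8 and 52.1 CPM and at 41.8 and 41.2 CPM in KO, and at 86.6 and 85.8 CPM and 72.5 and 64.8 CPM with NAC. Their log2 fold changes of 0.66 and 0.73 went to 0.07 and -0.05 with the trend removed. PSMG3, of the other pair of alpha ring chaperones, was at 9.65 and 13.2 CPM in KO and 19.9 and 21.4 with NAC (0.85 ± 0.18, adjusted p = 0.00264), and 0.96 with the trend removed, still called. Its partner PSMG4 was at 18.3 and 18.3 CPM in KO and 21.4 and 21.5 with NAC and was not called (0.23, adjusted p = 0.152). Of the base chaperones, PSMD9 was at 0.57 (adjusted p = 0.00468, 0.64 with the trend removed) and PSMD5 at 0.27 (adjusted p = 0.0368), which turned to -0.13 with the trend removed.

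The balance between core and cap also stood apart with NAC. The summed CPM of the 14 constitutive core genes over that of the 17 regulator genes was 0.864 and 0.867 in WT, 0.821 and 0.842 in KO, 0.910 and 0.895 at 5% O2, and 1.13 and 1.14 with NAC. Without PSMB3 the values were 0.843 and 0.865, 0.812 and 0.825, 0.884 and 0.870, and 1.08 and 1.11. The 4 groups did not overlap in either form, with the NAC libraries highest and untreated KO lowest. With NAC 13 of the 14 core genes and 9 of the 17 regulator genes were called higher, against 23.8% of all tested genes. The medians were 0.83 and 0.36. With the trend removed 8 and 6 were called higher, against 15.3%, with medians of 0.32 and 0.18. The difference between core and cap was not tested.

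**Figure D4:**
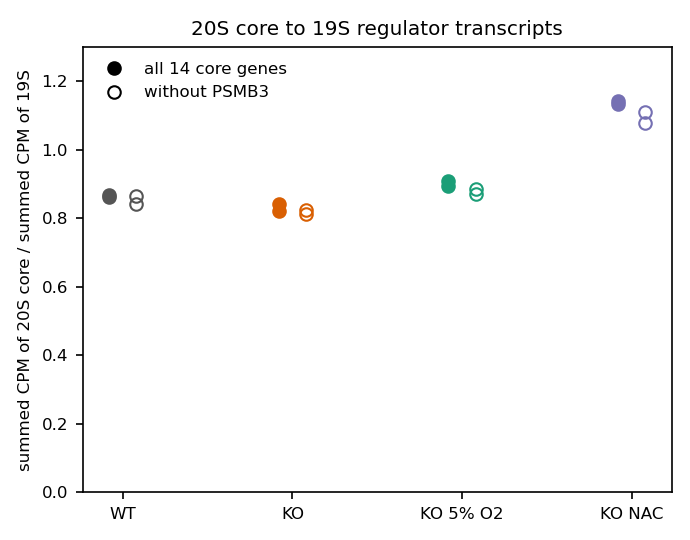
Summed CPM of the 14 constitutive 20S core genes divided by that of the 17 19S regulator genes (y axis, from 0) in each library by group, filled for all core genes and open without PSMB3. The NAC libraries stand at 1.13 and 1.14 (1.08 and 1.11 without PSMB3), the others between 0.812 and 0.910.

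At 5% O2 the members were higher than in untreated KO by a smaller amount, and fewer of them passed the test. They took up 0.767% and 0.742% of all counts. Of the 46 tested, 9 were called higher and 0 lower, against 3.68% and 4.13% of all tested genes, with 25 higher and 0 lower at an unadjusted p under 0.05, against 12.4% and 12.4%, and 12 and 0 by DESeq2, against 6.79% and 6.68%. The 9 were the alpha subunits PSMA1, PSMA2, PSMA4 and PSMA6, the beta subunit PSMB1, the ATPases PSMC2 and PSMC6, the lid metalloprotease PSMD14 and the chaperone PSMD10. The median was 0.20, against 0.00 over all genes. For 37 members both 5% O2 libraries lay above both KO libraries, against 30.7% of all genes, and for 0 they lay below, against 30.3%. The criteria of the study called 0 members in either direction, against 0.811% and 1.21% of all genes. With the length and GC trend removed 0 were called in either direction, against 1.76% and 0.346% of all genes, and the median was 0.11. At an unadjusted p under 0.05 there were then 14 higher and 1 lower, against 11.4% and 5.74%. Without KO replicate 1, KO replicate 2 or 5% O2 replicate 1 there were 0 calls in each case, against 0.175%, 0.254% and 0.188% of all genes higher, with medians of 0.20, 0.21 and 0.18. Without 5% O2 replicate 2 there were 3, against 1.43%, with a median of 0.22. Leaving out a library thus lowered the calls over all genes as well, while the members' median stayed near 0.20.

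The largest called values at 5% O2 were those of PSMD10 (0.57), PSMC6 (0.51 ± 0.11, adjusted p = 0.0213) and PSMB1 (0.42 ± 0.09, adjusted p = 0.0242). None of the catalytic subunits was called, PSMB5 being at 0.20, PSMB6 at 0.21 and PSMB7 at 0.31 (adjusted p = 0.168, 0.184 and 0.0704). Nor were the activators and the inhibitor, between -0.02 for PSME4 and 0.20 for PSME1, or the chaperones other than PSMD10, between 0.02 for PSMG4 and 0.32 for PSMG1. Both PSMD4 (0.11) and PSMB10 (-0.08) were not called either.

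**Figure D5:**
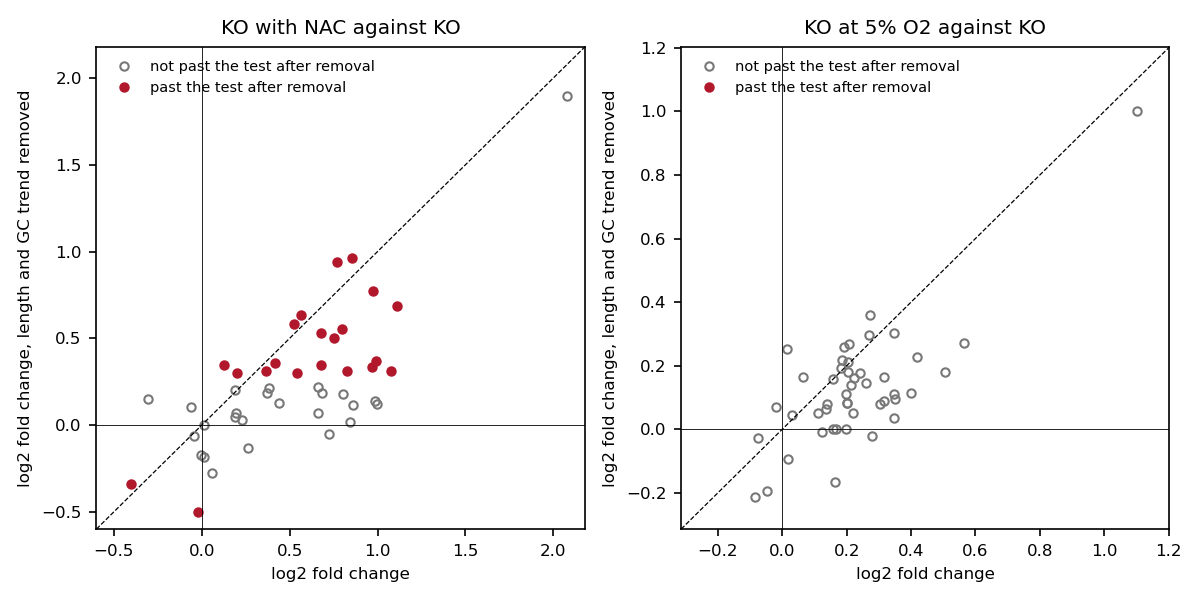
Log2 fold change of the 46 tested members (x axis) against the same with each library's trend on transcript length and GC content removed (y axis), for NAC (left) and 5% O2 (right), filled where the member passed the test after removal, with a dashed line at equality. With NAC 19 members are filled above 0 and 2 below, and at 5% O2 none is filled.

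Set directly against each other, KO cells with NAC stood above KO cells at 5% O2, though the length of treatment may not have been the same. Of 46 members 24 were called higher and 3 lower, against 15.5% and 13.6% of all tested genes, with a median of 0.34 against 0.04. Without the first NAC library there were 21 and 2, against 13.4% and 12.8%, PSMB7, PSME2, PSMG1 and PSMD2 having lost the call. With the trend removed there were 11 higher and 3 lower and a median of 0.13, the background being 7.82% and 7.76%. All 7 alpha subunits were among the 24. The libraries did not overlap for 34 members higher with NAC and 5 lower, against 33.4% and 29.2% of all genes, and the criteria of the study called 0 and 0, against 1.95% and 2.46%. The largest called values were those of PSMA3 (0.82 ± 0.10, adjusted p = 0.000395, and 0.31 with the trend removed, not called), PSMB1 (0.69 ± 0.09, adjusted p = 0.000616) and PSMA5 (0.66 ± 0.08, adjusted p = 0.000439). PSMD2, the large base scaffold, was at 511 and 539 CPM at 5% O2 and at 444 and 438 with NAC, and was called lower (-0.25 ± 0.08, adjusted p = 0.0332), as were PSME4 (-0.38) and PSMF1 (-0.32). PSMB3 was at 0.98 and not called (adjusted p = 0.317). With the trend removed the 3 lower genes were PSME4, PSMD1 and PSMD12.

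Genes that work with the proteasome were called in both directions with NAC. Their values with the length and GC trend removed are not given, so it is not shown which of these calls would stay. Of 27 tested partners, 10 were higher and 7 lower with NAC (37.0% and 25.9%, against 23.8% and 20.8% of all genes), with a median of 0.10 against 0.02. Without the first NAC library it was 7 and 7, against 21.2% and 19.7%. POMP, the chaperone that matures the core, was at 116 and 117 CPM in KO, 144 and 148 at 5% O2, and 185 and 200 with NAC, and was called higher with NAC (0.73, adjusted p = 4.42e-05) and at 5% O2 (0.32, adjusted p = 0.037). TXNL1, a thioredoxin that docks on the regulator, was called higher with NAC (0.82, adjusted p = 3.02e-05), as was the ubiquitin gene UBB (0.59, adjusted p = 0.000494). NFE2L1, the factor that drives proteasome genes when the proteasome is inhibited, was at 253 and 246 CPM in KO and 226 and 173 with NAC and was called lower (-0.32, adjusted p = 0.0314). DDI2, the protease that activates NFE2L1, was at 67.7 and 61.6 CPM in WT, 91.5 and 82.9 in KO, and 49.9 and 51.1 with NAC. It was called higher in KO against WT (0.43, adjusted p = 0.0405) and lower with NAC (-0.79, adjusted p = 6.04e-05). Among the ubiquilins, UBQLN2 (-0.65) and UBQLN4 (-0.37) were called lower with NAC, and UBQLN1 itself was at 0.38 (adjusted p = 0.0196). In KO against WT the list had 1 gene higher, DDI2, and 1 lower, UBQLN1, against 1.34% and 0.622% of all genes. At 5% O2 it had 3 higher and 0 lower, against 3.68% and 4.13%, and 11 and 1 at an unadjusted p under 0.05, against 12.4% and 12.4% (not run by list with DESeq2).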

How the data were processed

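The deposited values are counts of reads per gene without normalization, which the authors made by trimming with trim-galore, aligning to hg38 with HISAT2 and counting with featureCounts at default settings, with FastQC 0.11.9 named in the submitters' processing notes. The annotation is not given in the sources used here. At those settings strand is not used, and multiply placed reads or reads over more than 1 gene are dropped, so duplicated, overlapping and antisense genes are uncertain. Of 12 labelled samples, 8 had a column, and the treated WT libraries (4 samples) were not analysed here, so that the planned comparisons within WT were left out. There were 0 unused columns.

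Low counts were removed by filterByExpr (minimum count 10) in edgeR 4.0.16 (R 4.3.3). After TMM scaling, a single model of all 8 libraries with a term per group was tested by edgeR's quasi-likelihood test (4 residual degrees of freedom). Benjamini-Hochberg adjustment covered all 15916 tested genes, and called means an adjusted p under 0.05. Standard errors are the log2 fold change over the square root of the F statistic, and CPM uses TMM-scaled totals. The trend on length and GC was a smooth fit per library with mgcv 1.9.3, entered as an offset. Transcripts are the canonical ones of GENCODE 44, known for 95.4% of tested genes, and words elsewhere are 31-base runs found more than once in hg38 with its scaffolds. Genes named with values are the 3 largest called changes in each direction per comparison, called members against the majority, and the catalytic, ubiquitin receptor, activator, inhibitor and assembly genes. The members, lists and rule were chosen with earlier results of these data known. Alternatives were DESeq2 1.42.0, other normalizations and filters, a replicate block, fits of only the groups compared, the trend removed, genes without words elsewhere, the criteria of the study and leaving out each library. On simulated counts for NAC against KO (15689 genes, 200 changed), 168 were recovered and 17 unchanged genes were called. With a simulated trend (15679 genes), 3254 unchanged genes were called without and 14 with its removal. That trend was the same in both NAC libraries and depended only on the 2 variables that the fit removes. The changed genes were drawn without regard to length or GC content. The simulation therefore cannot show what the removal does to real changes in short genes such as the members. The counts behind a gene and the 2 libraries per group limit the precision.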

Additional observations from a re-analysis of the deposited data

How the results depend on the processing

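In KO against WT, the 1 lower member became 2 with DESeq2 and with only the groups compared, against 1.98% and 2.49% of all genes. It became 0, against 1.05% of all genes, once genes with words elsewhere were dropped, PSMD10 being among those. Leaving out 1 library gave medians of -0.13 to -0.11 in that comparison. With the length and GC trend removed, NAC gave 19 higher members (18 with the replicate block, 17 without the first NAC library) and a median of 0.19 (0.19 and 0.20). NAC against 5% O2 gave 11 higher (9 with the block, 11 without that library) and a median of 0.13 (0.13 and 0.11). At 5% O2 it gave 0 higher, also with the block, and a median of 0.11. Only the groups compared gave 15 higher at 5% O2. The criteria of the study gave 3 higher and 0 lower with NAC, 0 higher at 5% O2, and 0 and 0 for NAC against 5% O2. Leaving out 1 library gave 27 to 33 higher and 1 to 2 lower with NAC, 0 to 3 higher at 5% O2, and 13 to 25 higher and 0 to 3 lower for NAC against 5% O2. Where a group kept 1 library, it was taken to vary like the other groups. The fit without the trend and without the first NAC library was chosen after seeing the data.

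The sign of a called member turned only in fits with the trend removed. With NAC the values (trend alone, with the block, without the first NAC library) were 0.15, 0.15 and 0.15 for PSMF1, -0.050, -0.051 and -0.087 for PSMG2, and -0.13, -0.13 and -0.053 for PSMD5. For NAC against 5% O2 they were -0.020 and -0.019 for PSMG1 (first 2), -0.029, -0.030 and -0.068 for PSMG2, -0.028 for PSMD10 (last only), -0.015, -0.015 and -0.0076 for PSMA2, and -0.056, -0.060 and -0.17 for PSMC6. The cause was not tested. Values not called also changed sign in fits that kept the trend, among them that of PSMB3 in KO against WT, which ran from -0.74 to 2.85. Of the other values of single genes under the alternatives, 86 lost a call, 15 gained one, and 950 kept their side of the threshold. An uncalled value among the 950 kept its sign or moved by less than its standard error. Another 19 uncalled values changed sign and moved by at least that much. Deviations of the same replicate number correlated at -0.02 to 0.08 between groups over all genes, and at -0.66 to 0.76 over the tested members. The members include PSMB3, whose replicates differed 12.0-fold in WT, 1.77-fold in KO and 1.89-fold with NAC. The range without PSMB3 was not computed. With 2 libraries per group these correlations cannot show whether libraries of the same number were paired, and the labels do not say. The replicate block alone gave 31 higher and 2 lower with NAC, against 23.9% and 21.2% of all genes. It gave 10 higher at 5% O2, against 4.25%.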
